A study of Mus musculus with 9 samples.

Results

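The genes described here code for calprotectin and for related S100 proteins and annexins: S100a8, S100a9, S100a4, S100a6, S100a10, S100a11, Anxa1 and Anxa2. They were taken by gene symbol from a choice made with earlier results of these data known, and they are 8 of the 23337 genes counted. All 8 passed the filter on low counts and are among the 12553 genes tested. The study asked how extracellular vesicles (EVs) from enzalutamide-resistant (EnzR) CWR-R1 prostate cancer cells condition the bone marrow before metastasis, and whether HDL nanoparticles (HDL NPs) interfere. Male C57BL/6 mice 3 to 6 weeks old were injected on days 1, 3 and 5 with 100 µl of PBS or of EnzR EVs holding 10 µg of protein, and 1 of the 2 EV groups also had 100 µl of HDL NPs on days 0, 2 and 4. The HDL NP dose is given as 1 µM in the sample labels and as 100 µM in the methods. Marrow was harvested 24 h after the last injection, CD11b+ bone marrow cells were positively selected, and each library is 1 mouse, with 3 mice per group. No group of mice with HDL NPs alone and no group with EVs from another cell type is among these libraries, so an effect of HDL NPs by themselves or of EVs in general was not tested.

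Calprotectin is a dimer of S100A8 and S100A9 that neutrophils and monocytes store in their cytoplasm in large amounts, and both proteins are known from the pre-metastatic niche (PMN). S100A10 binds annexin A2 at the cell surface, S100A11 binds annexin A1, and S100A4 and S100A6 are related small calcium-binding proteins. Annexin A1 is released by neutrophils and acts through formyl peptide receptors. The selection label fits the counts: Itgam, which codes for CD11b, lay between 1390 and 2010 TMM CPM (counts scaled to library size) in the 9 libraries, its partner Itgb2 between 1180 and 2070, and the leukocyte gene Ptprc between 1090 and 2150.

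All 6 S100 genes lie on mouse chromosome 3, with S100a4, S100a6, S100a8 and S100a9 within 92.0 kb and S100a10 and S100a11 within 44.2 kb, 2.82 Mb further on. S100a8 and S100a9 are 22.6 kb apart, Anxa1 is on chromosome 19 and Anxa2 on chromosome 9. S100a4 overlaps Gm42674 on the same strand, Anxa1 a lincRNA on the opposite strand, and Anxa2 Mir3109 and an antisense gene, so some reads of these 3 genes may belong to their neighbours. S100a11 has 1 named pseudogene.

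Promoter windows from 150 bases before to 20 bases after the RefSeq transcript start (GRCm38.p6) were found for 7 of the 8 genes, not for S100a10. On either strand, TATAAA occurred in 5 of the 7 windows (S100a8, S100a9, S100a4, Anxa1 and Anxa2) against 8.11% of all 32817 windows of this length. TTNNGNAA, the short form of the C/EBP motif, occurred in 3 (S100a8, S100a9 and Anxa1) against 24.9% of all windows. In S100a8 TATAAA lay at -30 to -25 from the start, in Anxa1 at -32 to -27, in Anxa2 at -17 to -12 and in S100a9 at 1 to 6, just past the listed start. A match is a description of the sequence, not a binding site or a cause of a level. Shown are the 3 windows with both motifs and, of the 2 with TATAAA only, that of Anxa2, the more abundant of these per kb: S100a8 (chr3:90668921-90669090, plus strand), S100a9 (chr3:90695702-90695871, minus strand), Anxa1 (chr19:20390652-20390821, minus strand) and Anxa2 (chr9:69453533-69453702, plus strand), each in the direction of transcription with both motifs in capitals.
S100a8: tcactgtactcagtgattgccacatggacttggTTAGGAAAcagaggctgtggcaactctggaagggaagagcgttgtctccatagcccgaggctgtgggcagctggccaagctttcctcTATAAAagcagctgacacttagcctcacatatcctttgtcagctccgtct
S100a9: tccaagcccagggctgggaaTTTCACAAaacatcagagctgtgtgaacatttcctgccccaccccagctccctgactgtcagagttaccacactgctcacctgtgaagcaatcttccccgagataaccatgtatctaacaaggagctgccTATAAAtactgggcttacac
Anxa1: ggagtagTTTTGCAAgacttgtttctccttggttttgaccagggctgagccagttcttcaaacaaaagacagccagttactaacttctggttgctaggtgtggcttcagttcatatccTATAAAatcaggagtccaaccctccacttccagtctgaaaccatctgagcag
Anxa2: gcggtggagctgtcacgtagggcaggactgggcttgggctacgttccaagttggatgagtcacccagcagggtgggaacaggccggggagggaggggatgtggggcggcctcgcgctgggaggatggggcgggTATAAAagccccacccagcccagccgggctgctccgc

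The libraries differed widely in depth and in make-up. Total counts were 6006087, 16381679 and 15972757 in PBS 1 to 3, 2575776, 18110561 and 8554487 in EnzR EVs 1 to 3, and 15602936, 16611934 and 13231038 in EnzR EVs + HDL NPs 1 to 3. The ribosomal RNA gene Rn45s took 20.3%, 1.57% and 1.17% of the counts of PBS 1 to 3, 42.7%, 1.15% and 14.2% of those of EnzR EVs 1 to 3, and 0.763%, 0.657% and 2.87% of those of EnzR EVs + HDL NPs 1 to 3. PBS 1, EnzR EVs 1 and EnzR EVs 3 therefore stand apart, with Rn45s over 14% of counts and the 3 lowest totals. These libraries fall 1 in the PBS group, 2 in the EnzR EV group and none in the group with HDL NPs, so library make-up and treatment are partly confounded. S100a8 and S100a9 together made up 1.91%, 6.79% and 6.81% of the counts other than Rn45s in PBS 1 to 3, 0.491%, 7.53% and 2.33% in EnzR EVs 1 to 3, and 7.25%, 9.12% and 3.94% in EnzR EVs + HDL NPs 1 to 3. The lowest 3 of these shares belong to the 3 libraries that stand apart. Results below use all 9 libraries unless stated.

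**Figure D1:**
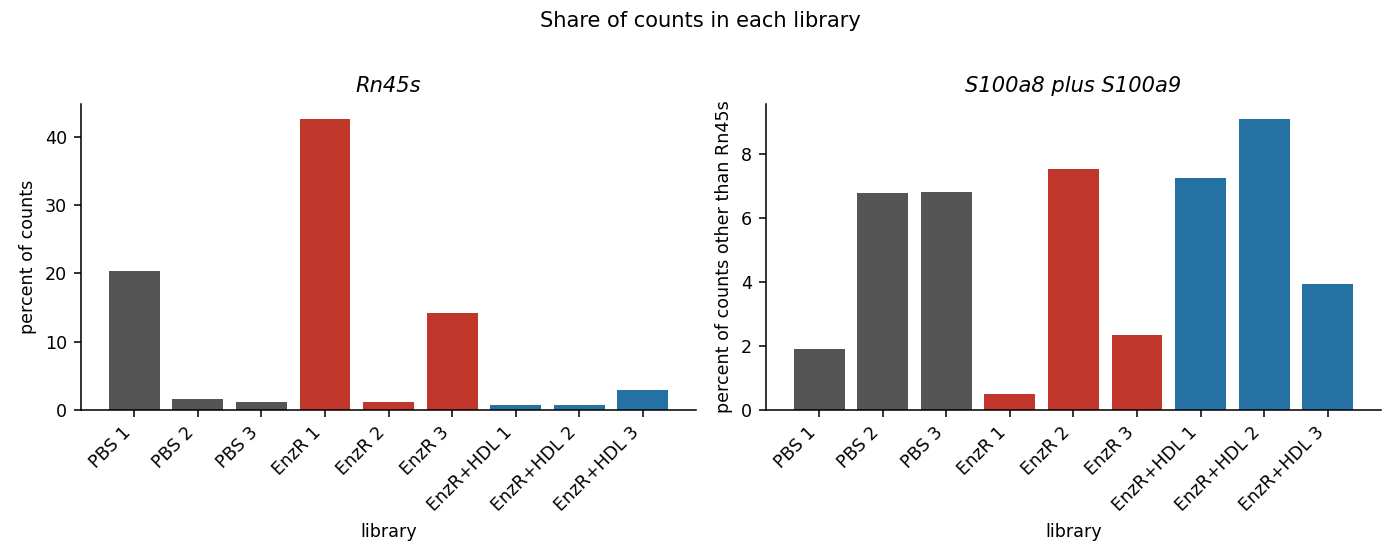
Rn45s as percent of all counts (left) and S100a8 plus S100a9 as percent of counts other than Rn45s (right), 1 bar per library, grey for PBS, red for EnzR EVs and blue for EnzR EVs + HDL NPs. The 3 libraries with Rn45s at 14.2% to 42.7% have the 3 lowest shares of S100a8 plus S100a9, 0.491% to 2.33%.

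S100a9 and S100a8 had the highest levels per kb of transcript of all 11351 genes ranked, with 52750 and 40770 CPM per kb on average over the 9 libraries. Anxa1 was at rank 14 with 1880, S100a6 at rank 19 with 949, Anxa2 at rank 62 with 484, S100a4 at rank 165 with 208, S100a11 at rank 253 with 150, and S100a10 at rank 592 with 76.3. The 6 S100 genes named here carried at least 99.4% of the summed level per kb of all 16 S100 genes in every library. Of the other 10 S100 genes only 3 were tested, S100a13 and S100a1 had the most CPM (means of 32.1 and 11.8), and S100z had no count in any library. Anxa1 and Anxa2 carried between 59.9% and 89.3% of the summed level per kb of 12 annexin genes, followed by Anxa3 with 156 and Anxa5 with 102 CPM per kb. Anxa10 had no count in any library.

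**Figure D2:**
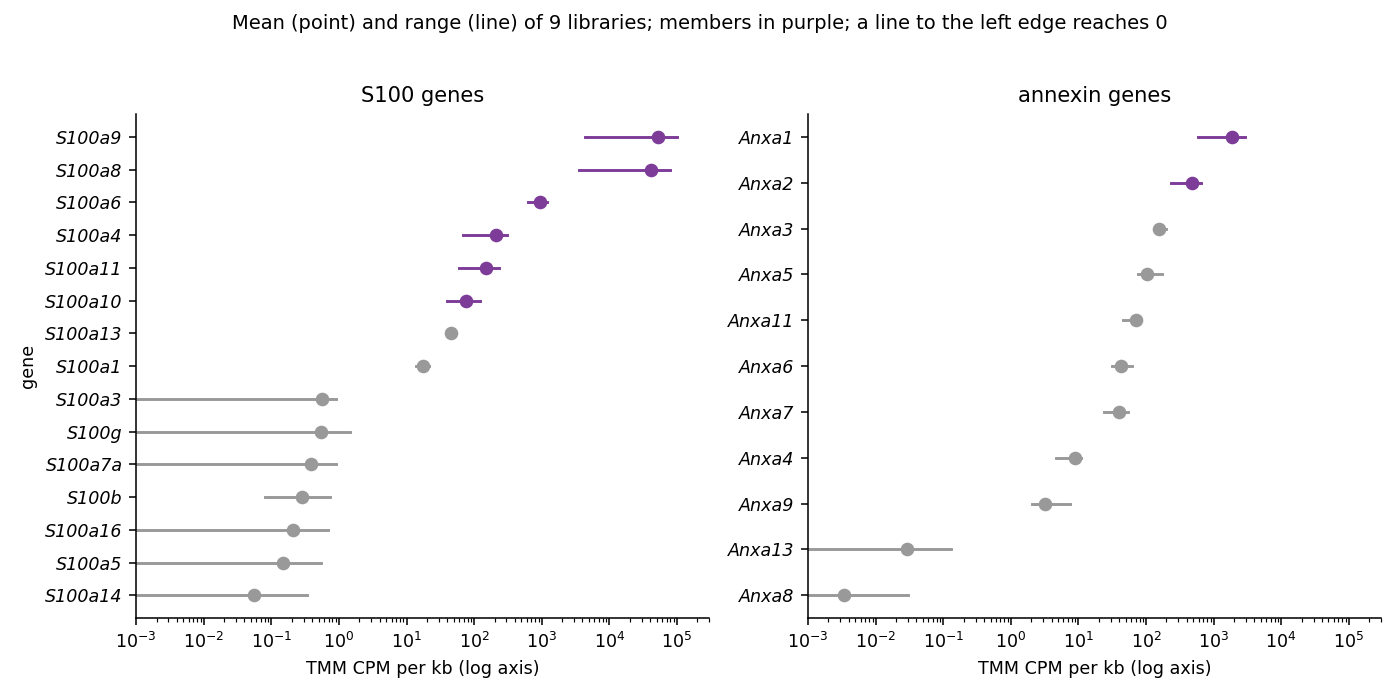
TMM CPM per kb of transcript on a log axis for the S100 genes (left) and annexin genes (right) with at least 1 count, with points for the mean and lines for the range of the 9 libraries and the 8 genes described here in purple. S100a9 and S100a8 (means of 52800 and 40800) lie over 20 times above Anxa1, the next gene of either family (1880).

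None of the 8 genes was called between mice treated with EnzR EVs and PBS mice by edgeR's quasi-likelihood test at a Benjamini-Hochberg adjusted p under 0.05. S100a8 measured 6236, 26500 and 26120 CPM in PBS 1 to 3 and 1745, 31250 and 7806 CPM in EnzR EVs 1 to 3. The highest and the lowest value of these 6 both belong to the EnzR EV group, which spans the PBS values completely. Its log2 fold change was -0.53 (95% interval -2.42 to 1.37; edgeR's quasi-likelihood test p = 0.55, adjusted p = 0.934; two-sided exact permutation p = 0.9, where 3 against 3 mice cannot give less than 0.10). S100a9 measured 9894, 36490 and 35380 CPM in PBS 1 to 3 and 2229, 40470 and 12420 CPM in EnzR EVs 1 to 3, again with both extremes in the EnzR EV group. The log2 fold change of S100a9 was -0.57 (95% interval -2.36 to 1.22; edgeR's quasi-likelihood test p = 0.498, adjusted p = 0.933; exact permutation p = 0.7).

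Among the 8 genes, S100a4 had the largest fold change between these groups in the edgeR fit to all 9 libraries, though not under every alternative. Its CPM were 113, 130 and 115 in PBS 1 to 3 against 34.6, 128 and 69 in EnzR EVs 1 to 3. EnzR EVs 2 lay among the PBS values and the other 2 below them, so the groups overlap (log2 fold change -0.59, edgeR's quasi-likelihood test p = 0.175, adjusted p = 0.928; exact permutation p = 0.3). For the other 5 genes the log2 fold changes ran from -0.26 for S100a6 over -0.25 for Anxa1, -0.16 for S100a10 and -0.12 for Anxa2 to -0.09 for S100a11. All 8 estimates were below 0, with a median of -0.25 against -0.03 for all tested genes, of which 46.5% were above 0. Several of the 8 genes vary together between libraries, so these are not 8 independent signs. The groups overlapped in all 8 genes, while they did not overlap in 7.96% of all tested genes. Among all genes edgeR's quasi-likelihood test also called 0 (0%), with 436 (3.47%) at an unadjusted p under 0.05, and DESeq2 called 14 of the 10878 genes to which it gave an adjusted p (0.129%), none of them among the 8.

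**Figure D3:**
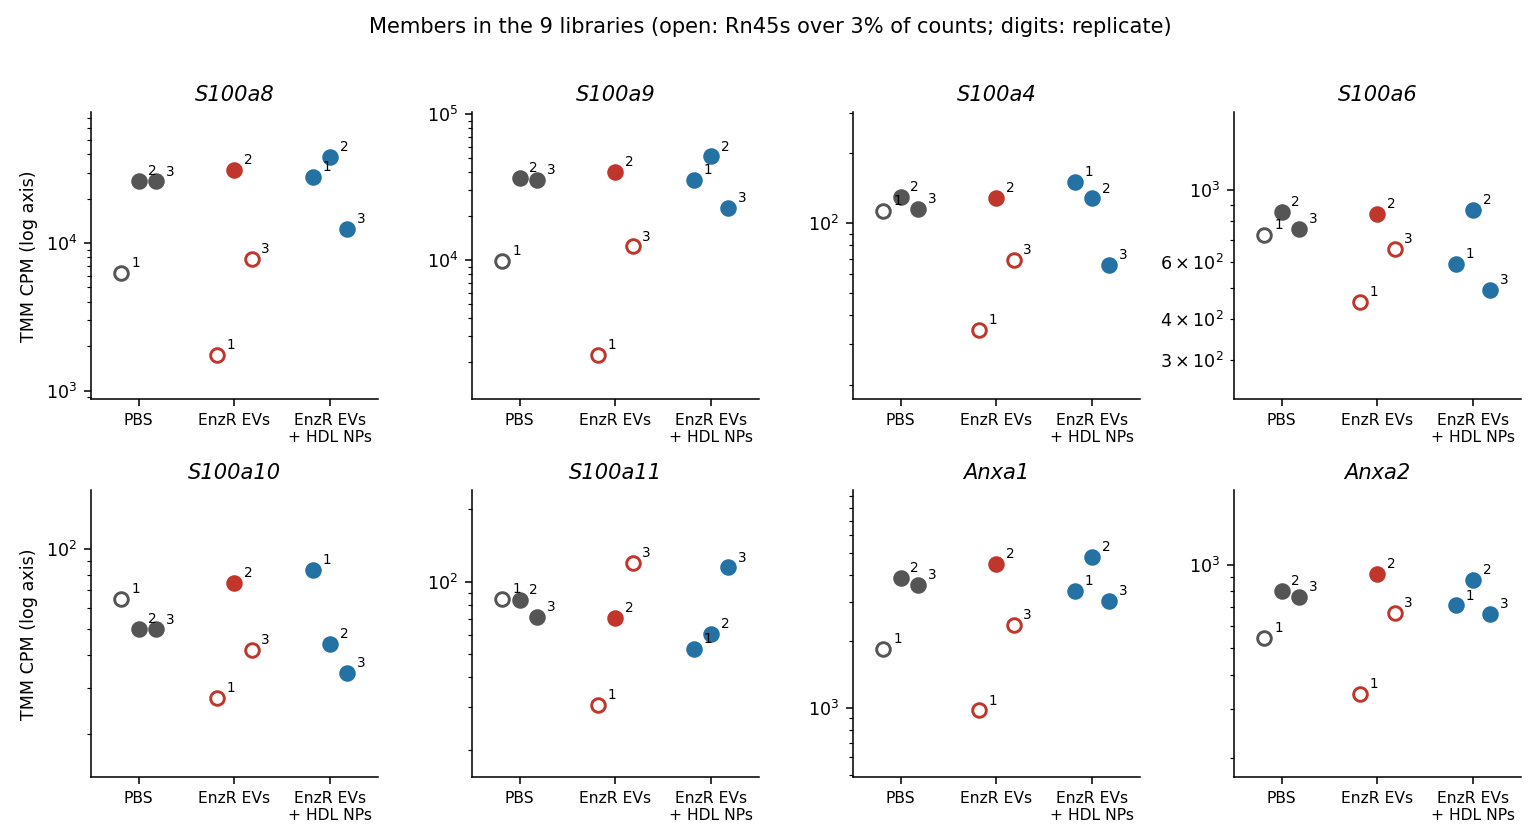
TMM CPM on a log axis for each of the 8 genes, 1 panel per gene and 1 point per library, with replicate numbers beside the points and open points for the 3 libraries with Rn45s over 3% of counts. In S100a8, S100a9 and Anxa1 the open points lie below all filled ones (S100a8: 1745 to 7806 against 12500 to 38310).

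With HDL NPs added, S100a8 measured 27850, 38310 and 12500 CPM and S100a9 35310, 51360 and 22840 CPM in EnzR EVs + HDL NPs 1 to 3. Against EnzR EVs the log2 fold change of S100a8 was 0.95 (95% interval -0.96 to 2.85; edgeR's quasi-likelihood test p = 0.296, adjusted p = 0.612; exact permutation p = 0.3). EnzR EVs 2 lay above EnzR EVs + HDL NPs 1 and 3 in this gene, so the groups overlap. The log2 fold change of S100a9 was 0.99 (95% interval -0.81 to 2.79; edgeR's quasi-likelihood test p = 0.251, adjusted p = 0.582; exact permutation p = 0.3). EnzR EVs 2 was likewise above EnzR EVs + HDL NPs 1 and 3 in S100a9. The remaining estimates were 0.54 for S100a4, 0.52 for Anxa1, 0.22 for Anxa2, 0.13 for S100a10, 0.02 for S100a11 and -0.01 for S100a6. In total 7 of 8 were above 0, with a median of 0.37 against 0.03 for all tested genes, of which 52.8% were above 0. With the log2 Rn45s share as a covariate, a setting added after seeing the data, 1 was above 0 and 7 were below. None of the 8 was called (smallest adjusted p 0.557 in edgeR's quasi-likelihood test), and the groups overlapped in each, against 17.6% of all tested genes without overlap. Among all genes edgeR's quasi-likelihood test called 0 (0%), with 1325 (10.6%) at an unadjusted p under 0.05, and DESeq2 called 1 of 18794 (0.00532%).

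Against PBS, the group with EnzR EVs and HDL NPs had log2 fold changes of 0.42 in both S100a8 and S100a9, 0.27 in Anxa1 and 0.10 in Anxa2, and of -0.26 in S100a6, -0.07 in S100a11, -0.05 in S100a4 and -0.03 in S100a10. All adjusted p were 1 in edgeR's quasi-likelihood test, and the groups overlapped in all 8 genes, against 13.2% of all tested genes without overlap. For this comparison edgeR's quasi-likelihood test called 0 of all genes (0%), with 268 (2.13%) at an unadjusted p under 0.05, and DESeq2 called 2 of 18794 (0.0106%). With the log2 Rn45s share as a covariate, S100a8 turned to -0.49 and S100a9 to -0.36 in this comparison. The 3 comparisons share their groups, so they are not independent of one another. The test for any difference among the 3 groups gave unadjusted p from 0.328 for S100a4 to 0.973 for S100a11 by edgeR's quasi-likelihood test, and 0 genes of all tested were called (0%), with 561 (4.47%) at an unadjusted p under 0.05.

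**Figure D4:**
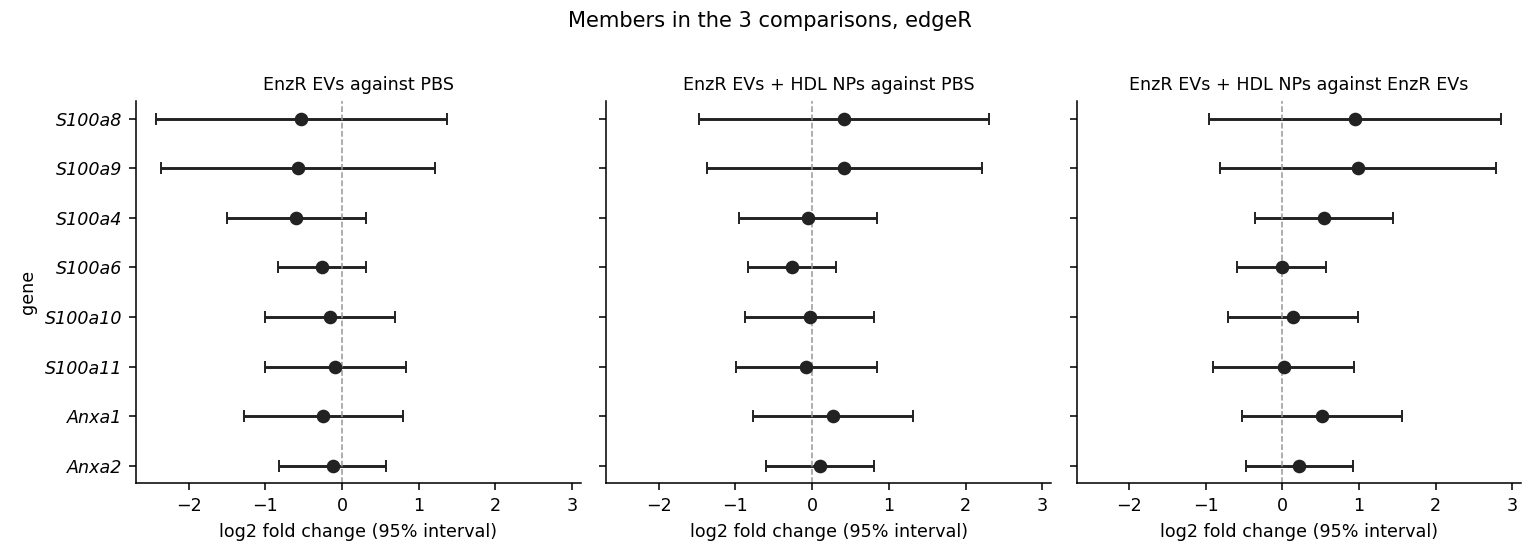
Log2 fold changes (points) with 95% intervals (lines) of the 8 genes in the 3 comparisons, from the edgeR fit to all 9 libraries. All 24 intervals include 0; the widest are those of S100a8, for example -2.42 to 1.37 for EnzR EVs against PBS.

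The estimates depended on single libraries. Removing PBS 1 made the estimates for EnzR EVs against PBS more negative in S100a8 (-0.95), S100a9 (-0.97) and Anxa1 (-0.51), among others. In S100a10 (-0.02) and S100a11 (-0.05) the estimates became less negative. Removing EnzR EVs 1 alone took the estimate for EnzR EVs against PBS to -0.003 in S100a8 and to -0.04 in S100a9, and turned it to 0.15 in Anxa1, 0.19 in Anxa2, 0.09 in S100a10 and 0.26 in S100a11. Leaving out PBS 2 turned that of Anxa2 to 0.005, and leaving out EnzR EVs 2 took S100a8 to -2.02, still without a call. Leaving out PBS 1 and EnzR EVs 1 together, the 2 lowest totals, gave -0.43 in S100a8, -0.44 in S100a9 and -0.11 in Anxa1. Between added HDL NPs and EnzR EVs, removing EnzR EVs 1 took S100a8 to 0.42 and S100a9 to 0.46, and turned S100a10 to -0.12, S100a11 to -0.33 and Anxa2 to -0.10. Removing EnzR EVs 2 instead took S100a8 to 2.44 and S100a9 to 2.30 in this comparison (smallest adjusted p of the 8 genes 0.0914 by edgeR's quasi-likelihood test). Between added HDL NPs and PBS, removing PBS 1 took S100a8 to -0.005. Without all 3 libraries that stand apart, a choice made after seeing the data, the EnzR EV group is down to EnzR EVs 2, and its spread is taken from the other groups. The estimates then only restate that this mouse, with 31250 CPM of S100a8, lay above PBS 2 and PBS 3: they were 0.25 in S100a8, 0.18 in S100a9 and 0.27 in Anxa1 against PBS, and -0.26, -0.15 and -0.27 for added HDL NPs against EnzR EVs. This does not test what the estimates from 9 libraries rest on. None of the 8 genes was called in any of these fits.

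A call in these genes depended on how single libraries were weighted. limma voom with sample quality weights, added after seeing the data, called 3 of the 8 genes for EnzR EVs against PBS: S100a8 (log2 fold change -1.69, adjusted p = 0.0316), S100a9 (-1.55, adjusted p = 0.0338) and S100a4 (-0.77, adjusted p = 0.0416). The same fit called 1990 of all 12553 tested genes, so a call was common in it. It gave low weights to both the EnzR EV library with the lowest S100a8 (EnzR EVs 1, 0.315) and that with the highest (EnzR EVs 2, 0.334), and 2.65 to EnzR EVs 3. PBS 1 had 0.365, PBS 2 had 3.61 and PBS 3 had 3.17. limma voom without these weights called none of the 8 genes (smallest adjusted p = 0.982), with log2 fold changes of -1.19 in S100a8, -1.27 in S100a9 and -0.62 in S100a4.

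Like many other genes, S100a8, S100a9 and Anxa1 split by the share of Rn45s, which is partly confounded with treatment. All 3 were lower in each of the 3 libraries that stand apart than in any of the other 6: S100a8 at 1745 to 7806 against 12500 to 38310 CPM, S100a9 at 2229 to 12420 against 22840 to 51360, and Anxa1 at 977 to 2372 against 3047 to 4783. Of all 12553 tested genes, 2253 (17.9%) were likewise lower in all 3 than in any of the 6 and 1941 (15.5%) were higher, so this split is not particular to these genes. Cebpb ran the other way, at 542 to 1422 against 128 to 274 CPM. Mmp8 lay at 542 to 1262 against 2149 to 3458 CPM, whereas Ltf (8523 to 16160 against 14170 to 21530) and Itgam (1389 to 1707 against 1581 to 2006) overlapped. Since the libraries form clusters in Rn45s, a correlation was taken only within the 6 with low shares. There log2 S100a8 had r = -0.90 (rho = -0.89) with log2 Rn45s share, S100a9 r = -0.86 (rho = -0.60), S100a4 r = -0.84 (rho = -0.43), Anxa1 r = -0.62 (rho = -0.60), S100a10 r = -0.57 (rho = -0.37), Anxa2 r = -0.52 (rho = -0.49), S100a6 r = -0.51 (rho = -0.49) and S100a11 r = 0.96 (rho = 0.94). These are descriptions over 6 libraries in which EnzR EVs + HDL NPs 3 had the highest share. RNA quality, cell losses during selection and differences between mice cannot be told apart here.

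**Figure D5:**
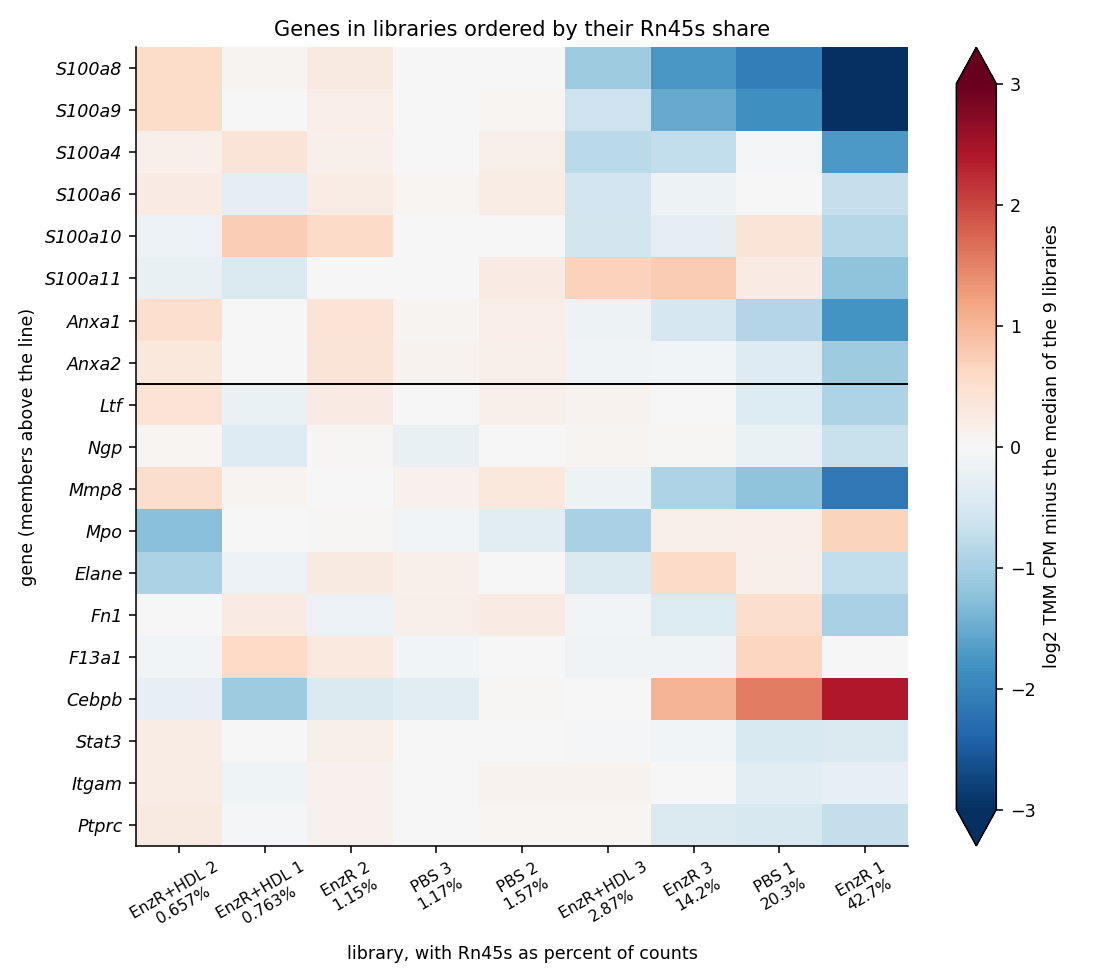
Log2 TMM CPM minus the median of the 9 libraries for the 8 genes (above the line) and 11 genes of the marker and transcription factor lists, with libraries ordered from the lowest to the highest Rn45s share (0.657% to 42.7%). S100a8, S100a9, Anxa1 and Mmp8 fall off towards the right, Cebpb increases from at most 274 to at least 542 CPM in the last 3 columns, and Itgam stays near its median.

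The spread inside the groups was large for the calprotectin genes. S100a8 varied 17.9-fold and S100a9 18.2-fold among the 3 mice given EnzR EVs, against 4.25-fold and 3.69-fold among PBS mice. In the group with HDL NPs they varied 3.06-fold and 2.25-fold. The low end in the EnzR EV group was EnzR EVs 1 alone, at 1745 CPM of S100a8 and 2229 CPM of S100a9. EnzR EVs 3 and EnzR EVs 2 lay at 7806 and 31250 CPM of S100a8 and at 12420 and 40470 CPM of S100a9. The standard deviation of log2 CPM inside groups was 1.47 for S100a8 and 1.40 for S100a9, against a median of 0.36 over all tested genes and of 0.26 over the 3497 genes at least as abundant as S100a10. Only 1.19% of tested genes had a larger one than S100a8. Anxa1 had 0.75, S100a11 0.67, S100a4 0.66, S100a10 0.58, Anxa2 0.48 and S100a6 0.36.

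S100a8, S100a9, Anxa1 and Anxa2 varied together over the 9 libraries. S100a8 and S100a9 had r = 0.99 (rho = 0.95; r = 0.99 without the 2 farthest libraries), S100a9 and Anxa1 r = 0.99 (rho = 1; 0.95 without), and Anxa1 and Anxa2 r = 0.98 (rho = 0.97; 0.91 without). Anxa2, whose promoter window has TATAAA only, had r = 0.95 with S100a8 (0.80 without) and 0.97 with S100a9 (0.78 without). Whether the motifs bear on this variation was not tested. S100a9 had r = 0.86 with S100a4 (0.83 without). S100a8 had r = 0.87 with S100a4 (0.91 without), 0.70 with S100a6 (0.62 without) and 0.59 with S100a10 (0.55 without). S100a10 had r = 0.85 with S100a4 (rho = 0.85, and r = 0.61 without), but 0.51 with Anxa1 (0.02 without) and 0.55 with Anxa2 (0.15 without). It had 0.54 with S100a6 (-0.33 without), and S100a4 had 0.78 with S100a6 (0.22 without). The 2 farthest libraries differ between pairs, so values without them are not over the same libraries. For pairs among S100a4, S100a6 and S100a10 they were EnzR EVs 1 and EnzR EVs + HDL NPs 3. For S100a10 with either annexin they were EnzR EVs 1 and EnzR EVs + HDL NPs 1, and for the other pairs named here EnzR EVs 1 and PBS 1. EnzR EVs 3, which also stands apart by its Rn45s share, stayed in for each of these pairs. The values without the 2 farthest libraries are therefore not free of the split by Rn45s. S100a11 differed most from S100a8: its r with S100a8 was 0.29 over 9 libraries (rho = -0.28) and -0.88 without EnzR EVs 1 and PBS 1. Its CPM were 84.8, 84.1 and 71.2 in PBS 1 to 3, 30.7, 70.8 and 120 in EnzR EVs 1 to 3, and 52.4, 60.9 and 115 in EnzR EVs + HDL NPs 1 to 3.

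Outside the 8 genes, the tested gene closest to S100a8 was Asah1 (r = 0.997), to S100a9 Cd52 (0.998), to Anxa1 Dstn (0.998) and to Anxa2 Tkt (0.994), each over 9 libraries. For S100a4 it was Pfdn4 (0.986), for S100a6 Pigx (0.982), for S100a10 Gtf2h2 (0.966) and for S100a11 Susd2 (0.952), the last with a mean of only 0.574 CPM. The mean of S100a8 and S100a9 was closest to Cd52, followed by Myl12b, Rnf130 and Traf7 (all r = 0.997) and Clec4a2 (0.996). Cd52 measured 164, 517 and 482 CPM in PBS 1 to 3, 47.2, 571 and 202 in EnzR EVs 1 to 3, and 464, 641 and 302 in EnzR EVs + HDL NPs 1 to 3. These genes are the closest among all tested genes outside the 8, so a high r follows partly from the search itself.

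Ratios of counts between binding partners, taken inside a library, do not depend on the scaling between libraries. The ratio of S100a8 to S100a9 stayed between 0.548 and 0.789 in the 9 libraries, although either gene alone varied over 20-fold. Its mean log2 was -0.52 in PBS, -0.47 in EnzR EVs and -0.54 in EnzR EVs + HDL NPs, with exact permutation p of 0.6 to 1. The log2 ratio of S100a10 to Anxa2 ran from -4.33 to -3.05 (exact permutation p of 0.5 to 0.8), and that of S100a11 to Anxa1 from -6.30 to -4.31 (exact permutation p of 0.4 to 0.9). After Benjamini-Hochberg adjustment of the 9 exact permutation tests every p was 1.

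Genes that act with these proteins gave no call in any comparison, in edgeR or in DESeq2. Of 10 other annexins 7 were tested, and Anxa3 had the largest estimate for EnzR EVs against PBS (0.35, edgeR's quasi-likelihood test adjusted p = 0.928); the 10 summed to between 710 and 1052 CPM per library, highest in EnzR EVs 1. The 10 other S100 genes summed to between 39 and 52.6 CPM, and S100a7a had the largest estimate of the 3 tested (-1.37) at a mean of 0.485 CPM. Among 11 receptors of calprotectin and annexin A1, 10 tested, Fpr2 and Cd33 were most abundant (392 and 335 CPM), and Cd36 had the largest estimate (-0.83, edgeR's quasi-likelihood test adjusted p = 0.928); their sum was 1066 to 1651 CPM. Partners of annexin A2 with S100A10 and the plasminogen system, 5 of 8 tested, summed to between 1192 and 2637 CPM, led by Ahnak and Plaur (1323 and 238 CPM), and Serpinb2 had the largest estimate (-0.46). Eno1 had no count in any library, which is uncertain because a nearly identical gene copy exists. The 9 transcription factors of the granulocyte and monocyte lineage, all tested, summed to between 1193 and 2566 CPM, led by Cebpb and Stat3 (450 and 312 CPM). Cebpb had an estimate of 0.77 for EnzR EVs against PBS and of -1.80 for added HDL NPs against EnzR EVs (edgeR's quasi-likelihood test adjusted p = 0.461), with its highest value, 1420 CPM, in EnzR EVs 1.

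Marker lists describe the selected cells. Granulocyte genes dominated. Of 10 markers of granulocytes past the early stage, not of mature cells alone, 9 were found (Ly6g had no matching symbol), and all 9 were tested. They summed to between 27720 CPM in EnzR EVs 1 and 61680 CPM in EnzR EVs + HDL NPs 2, led by Ltf and Ngp. For EnzR EVs against PBS 9 of 9 estimates were below 0 (median -0.14, Mmp8 -0.66), and for added HDL NPs 9 of 9 were above 0 (median 0.18). The 6 early granulocyte markers summed to between 877 and 2250 CPM, led by Mpo and Elane, with 5 of 6 above 0 for EnzR EVs against PBS (Prss57 0.66) and 6 of 6 below 0 for added HDL NPs (median -0.79). The 8 monocyte markers summed to between 1940 and 3804 CPM, led by Fn1 and F13a1, with 7 of 8 below 0 for EnzR EVs against PBS and 7 of 8 above 0 for added HDL NPs against EnzR EVs. The 9 marrow macrophage markers summed to between 546 and 1188 CPM, led by Vcam1 and Axl, with 8 of 9 below 0 for EnzR EVs against PBS (median -0.72, Spic -1.11), 7 of 9 above 0 for added HDL NPs against EnzR EVs and 9 of 9 below 0 for added HDL NPs against PBS. None of these genes was called, by edgeR's quasi-likelihood test or DESeq2. These estimates use all 9 libraries, including the 3 that stand apart. Of all tested genes, 46.5% were above 0 for EnzR EVs against PBS and 52.8% for added HDL NPs against EnzR EVs. For added HDL NPs against PBS 48.9% were above 0. Genes of a list can vary together, so the counts above are not of independent signs. In bulk RNA, fewer cells of a type and less RNA per cell cannot be told apart.

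Lists of other cell types were low, apart from eosinophil and basophil markers, whose 5 genes summed to between 1266 and 3265 CPM, led by Prg2 and Epx (Cpa3 -0.91 for EnzR EVs against PBS). The 7 T and NK markers, 4 tested, summed to between 25.5 and 77.9 CPM, led by Nkg7 and Cd3d (Cd3d -0.80). The 9 erythroid markers, 8 tested, summed to between 49.5 and 343 CPM, led by the beta globin gene Beta-s (-1.46) and Slc4a1, with Hba-a1 at 0 in all 9 libraries, which is uncertain because a nearly identical gene copy exists. The 6 platelet and megakaryocyte markers summed to between 27.1 and 105 CPM, led by Itga2b and Ppbp (Ppbp -1.36). The 5 dendritic markers summed to between 49 and 66.4 CPM, led by Itgax and Bst2 (Siglech -1.90 at a mean of 1.03 CPM). The 7 stroma and endothelium markers summed to between 39.3 and 103 CPM, led by Cxcl12 and Pecam1 (Col1a1 0.71). No gene of these lists was called in any comparison.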

How the data were processed

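RNA sequencing of CD11b+ bone marrow cells from 9 mice (3 each for PBS, EnzR EVs and EnzR EVs + HDL NPs) was used as the counts per gene that the authors deposited, 1 library per mouse. The authors trimmed reads with cutadapt 1.13, dropped poor reads and those matching rRNA (Rn45s still held up to 42.7% of a library's counts), aligned them to mm10 with STAR (version not stated) and counted them with htseq-count of HTSeq 0.6.1p1; whether counting used the strand is not stated. Total counts ran from 2575776 (EnzR EVs 1) to 18110561 (EnzR EVs 2). At 3 counts, the floor used here, a library holds 0.16 to 1.65 TMM CPM; floors cover counting error only, not differences between mice.

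All 23337 genes were fitted together in edgeR 4.0.16 (R 4.3.3) with TMM scaling (factors from 0.71), the default filter on low counts (12553 genes kept), 1 coefficient per group, no covariate and robust quasi-likelihood tests. P values were adjusted by Benjamini-Hochberg over all tested genes, and a gene was called at an adjusted p under 0.05. DESeq2 1.42.0 and limma voom 3.58.1 were run beside it. CPM of each gene and log2 ratios of partner genes (0.5 added to each count) were compared by two-sided exact permutation of 3 against 3 mice. Correlations use log2 TMM CPM with a prior count of 2.

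The 8 genes and all lists (other S100 genes, other annexins, receptors, partners, transcription factors and 12 cell type lists, 1 of them not reported here) were chosen with earlier results of these data known. Named from each list are the 2 genes with the highest mean CPM, the gene with the largest fold change for EnzR EVs against PBS and any called gene; Rn45s is named as a measure of library make-up, and the closest gene by correlation for each of the 8. Of 131 list genes 130 were found, 4 under an older symbol, and 111 were tested. Lengths, positions and overlaps come from GENCODE M21 (GRCm38), promoter windows from RefSeq GRCm38.p6.

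Alternatives listed at the outset were DESeq2, limma voom, library size scaling, DESeq2 size factors, no filter, only the compared groups, the replicate number as a block, Rn45s left out, the lowest 2 totals left out and each library left out. Added after seeing the data were voom with sample quality weights, the Rn45s share as a covariate and only the libraries with Rn45s under 3% of counts. The pipeline was tested on simulated data. No pair of libraries of a group was a duplicate: even the closest, PBS 2 and PBS 3, differed more than sampling allows (chi-square 4.48 for each gene).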

Additional observations from a re-analysis of the deposited data

How the results depend on the processing

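The 8 genes were not called under any alternative except voom with sample quality weights (3 called for EnzR EVs against PBS). Of 504 alternative fold changes of these genes 432 kept their direction and 72 turned. Genes called for EnzR EVs against PBS, 0 by edgeR, were 14 with DESeq2, 1 without a filter, 5 without the lowest 2 totals, 1990 with quality weights, 1 with Rn45s as covariate, 10 with Rn45s under 3% only and 0 to 2 with single libraries left out (2 without PBS 1). For HDL NPs added against PBS they were 2 with DESeq2 and 10 with quality weights. For HDL NPs added against EnzR EVs they were 1 each with DESeq2, with only the 6 libraries compared, without the lowest 2 totals and with Rn45s under 3%, 653 with quality weights and 0 to 1 with single libraries left out. For any difference they were 15 with DESeq2, 2 without the lowest 2 totals, 1245 with quality weights, 1 with the covariate, 8 with Rn45s under 3% and 0 to 1 with single libraries left out. No label says that a replicate number marks a pair, and the numbers were not taken as pairs. The 9 same-number pairs had r from -0.18 to 0.49. Of them 6 had r over 0.1, all 3 between PBS and EnzR EVs among them. In both other groups, 3 libraries matched their number best. The number as a block gave 1 gene called for EnzR EVs against PBS, 0 in the other tests and none of the 8. S100a8 and S100a9 were then both at -0.99 for EnzR EVs against PBS, against -0.53 and -0.57 without the block. Log2 fold changes that turned for EnzR EVs against PBS were, without the lowest 2 totals, S100a10 0.24, S100a11 0.30 and Anxa2 0.036; with quality weights S100a11 0.42; with the covariate Anxa1 0.043 and Anxa2 0.078; with Rn45s under 3% S100a8 0.25, S100a9 0.18, S100a4 0.073, S100a6 0.073, S100a10 0.58, Anxa1 0.27 and Anxa2 0.25. For HDL NPs added against PBS they were, with library size scaling, S100a4 0.005 and S100a10 0.06; without the lowest 2 totals S100a8 -0.004, S100a10 0.11 and Anxa2 -0.059; with quality weights Anxa2 -0.008; with the covariate S100a8 -0.49, S100a9 -0.36, Anxa1 -0.17 and Anxa2 -0.19; with Rn45s under 3% S100a8 -0.004, S100a10 0.11 and Anxa2 -0.059. For HDL NPs added against EnzR EVs they were, with voom, S100a6 0.002 and S100a11 -0.026; with library size scaling S100a6 0.17; without a filter S100a6 0.027; without the lowest 2 totals S100a10 -0.13, S100a11 -0.33 and Anxa2 -0.10; with quality weights S100a6 0.023 and S100a11 -0.56; with the covariate S100a8 -0.34, S100a9 -0.13, S100a4 -0.021, S100a10 -0.20, Anxa1 -0.21 and Anxa2 -0.27; with Rn45s under 3% S100a8 -0.26, S100a9 -0.15, S100a4 -0.17, S100a10 -0.47, Anxa1 -0.27 and Anxa2 -0.31. With single libraries left out, estimates for EnzR EVs against PBS ran from -0.61 to 0.094 in S100a10, -0.62 to 0.26 in S100a11, -0.86 to 0.15 in Anxa1 and -0.45 to 0.19 in Anxa2. For HDL NPs added against PBS they ran from -0.005 to 0.76 in S100a8, -0.29 to 0.22 in S100a4, -0.48 to 0.21 in S100a10, -0.50 to 0.14 in S100a11 and -0.061 to 0.21 in Anxa2, and against EnzR EVs from -0.29 to 0.20 in S100a6, -0.33 to 0.58 in S100a10, -0.42 to 0.55 in S100a11 and -0.10 to 0.55 in Anxa2. Differences in log2 ratios ran, for S100a8 to S100a9, from -0.02 to 0.16, -0.12 to 0.14 and -0.18 to 0.08 in the 3 comparisons in this order, for S100a10 to Anxa2 from -0.26 to 0.22, -0.64 to 0.07 and -0.55 to 0.07, and for S100a11 to Anxa1 from -0.28 to 0.56 for EnzR EVs against PBS. Library size scaling moved the median of all genes by -0.15 for EnzR EVs against PBS and by 0.21 for HDL NPs added against EnzR EVs. The cause of these differences was not tested.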

Other observations

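Without a call, 12 of the 104 tested genes of the reported lists (11.5%) did not overlap between EnzR EVs and PBS, against 7.96% of all tested genes. Between HDL NPs added and EnzR EVs 16 (15.4%) did not overlap, against 17.6%, and between HDL NPs added and PBS 9 (8.65%), against 13.2%. Values follow for some of them. Axl measured 154, 148 and 221 CPM in PBS 1 to 3 against 110, 100 and 95.9 in EnzR EVs 1 to 3, without overlap (log2 fold change -0.78, edgeR's quasi-likelihood test p = 0.00172, exact permutation p = 0.1, adjusted p = 0.928). It stayed low with HDL NPs added, at 118, 97.3 and 103 CPM. Fn1 measured 1500, 1230 and 1180 CPM in PBS 1 to 3 against 533, 923 and 783 in EnzR EVs 1 to 3, without overlap (-0.81, edgeR's quasi-likelihood test p = 0.00417, exact permutation p = 0.1). Prss57 measured 75.2, 36.7 and 49.4 CPM in EnzR EVs 1 to 3 against 27.7, 20.5 and 20.4 with HDL NPs added, without overlap (-1.20, edgeR's quasi-likelihood test p = 0.00152, exact permutation p = 0.1, adjusted p = 0.461). Nkg7 measured 66.9, 35.7 and 42.9 CPM in EnzR EVs 1 to 3 against 29.4, 16.4 and 18.9 with HDL NPs added, without overlap (-1.14, edgeR's quasi-likelihood test p = 0.00348, exact permutation p = 0.1). In both Prss57 and Nkg7 the 3 highest values of all 9 libraries were those of EnzR EVs 1, EnzR EVs 3 and PBS 1 (43.3 CPM of Prss57 and 42.6 CPM of Nkg7), the libraries rich in Rn45s, none of which had HDL NPs. Bst2 measured 12.8, 11 and 10 CPM in PBS 1 to 3 against 19.8, 17.3 and 19 in EnzR EVs 1 to 3, without overlap (0.73, edgeR's quasi-likelihood test p = 0.00861, exact permutation p = 0.1). Among the others, Anxa3, Vcam1, Cpa3 and Itgax did not overlap between EnzR EVs and PBS, nor did Mpo, Cd33, Cd36, Anxa5, Cd3d, Vcam1 and Fn1 between HDL NPs added and EnzR EVs.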
